A study of Mus musculus with 9 samples.

Results

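The 10 genes described here encode the parts of canonical and noncanonical inflammasomes and the pore that they open. They are the sensors *Nlrp3*, *Nlrp1b*, *Nlrc4*, *Naip2*, *Naip5* and *Aim2*, the adaptor *Pycard*, the inflammatory caspases *Casp1* and *Casp4*, and the pore protein *Gsdmd*. They were taken from a list by symbol, and the list was chosen with earlier results of these data known. Each symbol matched 1 of the 53801 Ensembl genes in the count data. All 10 passed the filter on low counts in each of the 3 comparisons.

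RNA was sequenced from cells sorted as monocytes/macrophages (CD11c-Ly6G-CD11b+CD45high) of male C57BL/6J mice aged 9 weeks. There were 3 groups of 3 libraries. Stroke brain and stroke blood came from mice with dMCAO, a permanent block of the left distal middle cerebral artery together with the left common carotid artery, and were collected on day 5. Sham blood came from sham-operated mice, for which the methods name no day of collection. A brain library pooled cells from the stroke-side hemispheres of 5 mice and a blood library held the cells of 1 mouse, so the spread in the brain is that between pools. No sham brain was analysed here, so the brain comparisons contain tissue, dissociation and pooling as well as recruitment, and these cannot be told apart.

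As background, an inflammasome is a cytosolic platform that assembles when a sensor meets a microbial product or a sign of cell damage. NLRP3 responds to disturbed ion balance, NLRP1B to proteolytic cleavage and lowered cell energy, AIM2 to DNA in the cytosol, and the NAIP proteins to bacterial flagellin or secretion system proteins, which they pass on to NLRC4. The adaptor ASC, encoded by *Pycard*, links sensors to caspase-1, which matures IL-1β and IL-18 and cleaves gasdermin D, and mouse caspase-11, encoded by *Casp4*, cleaves gasdermin D after binding cytosolic lipopolysaccharide. Gasdermin D fragments then form membrane pores that release the cytokines and can end in pyroptosis, a lytic cell death. These steps are controlled largely at the protein level, and the counts here measure only the RNA.

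*Naip2* (chromosome 13, 100144063 to 100202092, minus strand) and *Naip5* (chromosome 13, 100211739 to 100246323, minus strand) are neighbouring copies. Their sequences are shown because a read that lies wholly in a shared stretch cannot be assigned on its own. Both 200-base windows are coding sequence from GENCODE M21 transcripts on GRCm38, written 5′ to 3′, with the bases that differ between the genes in capitals. The *Naip2* window is chr13:100161612-100161811 in exon 11, and the *Naip5* window is chr13:100222944-100223143 in exon 9. They share an unbroken run of 140 bases and differ at 7 positions.
Naip2: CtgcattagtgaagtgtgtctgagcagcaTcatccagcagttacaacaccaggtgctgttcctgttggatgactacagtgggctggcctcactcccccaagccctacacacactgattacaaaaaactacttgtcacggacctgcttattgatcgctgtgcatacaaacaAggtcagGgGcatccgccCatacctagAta
Naip5: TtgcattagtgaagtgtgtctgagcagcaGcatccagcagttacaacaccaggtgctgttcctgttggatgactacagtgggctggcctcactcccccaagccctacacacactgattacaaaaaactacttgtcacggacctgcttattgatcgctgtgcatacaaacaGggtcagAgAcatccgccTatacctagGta
Of all 75-base windows along the transcript, as long as a sequenced read, 10.9% in *Naip2* and 23.8% in *Naip5* also occurred in a transcript of another gene, mostly other *Naip* copies. The share was 0.690% in *Nlrp1b*, where the other gene was *Nlrp1a*. It was 11.03% in *Pycard*, part of whose transcript also lies in the antisense gene *Gm45205*; the cDNA kit does not mark strand, so their reads cannot be told apart, and *Gm45205* was counted 13 times in all. The other 6 members had 0 shared windows. Sequencing was paired-end, so a mate outside a shared stretch can place a read, and these shares leave mates out. Levels of *Naip2* and *Naip5* may still be less certain than those of the caspases and *Gsdmd*.

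*Casp1* (5298517 to 5307265) and *Casp4* (5308828 to 5336783) lie next to each other on the plus strand of chromosome 9, and both were lower in the brain than in stroke blood. For that reason the 250 bases before the RefSeq start of each gene are shown, on GRCm38.p6, plus strand. The *Casp1* stretch is chr9:5298267-5298516 and the *Casp4* stretch chr9:5308599-5308848, whose end lies inside the gene as the count files place it. A second RefSeq start of *Casp4*, with chr9:5308610-5308859 before it, gave a largely overlapping stretch that is not shown.
Casp1: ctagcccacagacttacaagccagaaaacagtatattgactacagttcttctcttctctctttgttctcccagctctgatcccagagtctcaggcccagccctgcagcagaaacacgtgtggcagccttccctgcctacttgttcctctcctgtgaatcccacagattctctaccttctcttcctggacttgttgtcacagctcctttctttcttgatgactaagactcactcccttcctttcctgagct
Casp4: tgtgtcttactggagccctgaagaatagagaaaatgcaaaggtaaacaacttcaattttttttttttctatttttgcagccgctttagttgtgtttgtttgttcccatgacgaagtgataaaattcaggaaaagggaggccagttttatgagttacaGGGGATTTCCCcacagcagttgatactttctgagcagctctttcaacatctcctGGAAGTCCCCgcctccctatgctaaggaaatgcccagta
Capitals mark the NF-κB consensus, found in the *Casp4* stretch at a pair of overlapping places and once more nearer the start, the last on the minus strand, and not in that of *Casp1*. The NF-κB letters were GGGRNYYYCC (R for A or G, Y for C or T, N for any base), and they stood in 5.81% of all 32841 promoter windows of 300 bases. They were widened after the sequences had been seen, so these matches did not come from a pattern fixed beforehand. The other 3 motifs searched on both strands were GAAA and GAAA with any 2 bases between them (interferon-stimulated response element, in 3.44% of windows), TTCNNNGAA (STAT site, 8.30%) and GAGGAAG (PU.1 site, 13.6%), and neither stretch held them. RefSeq windows were matched for 9 of the 10 members, all but *Gsdmd*. Of these, *Nlrp3*, *Nlrp1b*, *Aim2* and *Pycard* held the PU.1 letters in a window, *Nlrp3* and *Casp4* held the NF-κB consensus, and no member held either of the others. A match is a run of letters and was not tested for binding.

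The libraries held 18475118 to 22623578 counts. The sorted cells carried the defining genes *Csf1r*, *Itgam* and *Ptprc* in all 9 libraries. Levels are given as normalised CPM, counts per 1000000 after TMM scaling, and 3 counts corresponded to 0.125 to 0.180 CPM. Pairs of groups were tested by edgeR's quasi-likelihood method, with p adjusted over all genes tested. Called genes had more than a 2-fold difference with an adjusted p under 0.05, and the words rose and fell are used for an adjusted p below 0.05. Replicates were more different from each other than counting noise allows, so each was kept. In these bulk samples, fewer cells of a type and less RNA per cell cannot be told apart. Markers of several other cell types differed between tissues, though not always against both blood groups. The 10 microglial markers summed to 149 to 209 CPM in the blood libraries, where *Sall1* was at 0, and to 1413, 2119 and 4081 CPM in the brain, and all 10 were called higher in the brain. The 9 monocyte/macrophage markers summed to 90715 to 127357 CPM in blood and to 42016 to 48226 CPM in the brain. Most of each sum was *Lyz2*, which alone held 7.95% to 11.6% of all counts in the blood libraries and 3.87% to 4.28% in the brain. Between brain and stroke blood 1 of these 9 markers was called higher and 2 lower. The 6 platelet markers summed to 243 to 287 CPM in stroke blood, to 3.07 to 5.23 CPM in the brain, and to 12.2, 345 and 513 CPM in sham blood. The 8 dendritic cell markers, of which *Siglech* is also in the microglial list, summed to 115 to 356 CPM in sham blood, 111 to 236 in stroke blood and 783 to 993 in the brain. Of these 8, 7 were called higher in the brain than in stroke blood. Among them *Itgax*, which encodes the CD11c that was gated out, had 11.8 to 20.5 CPM in stroke blood and 74.1 to 128.7 in the brain. In the same comparison 4 of 6 border macrophage, 5 of 11 neutrophil, 3 of 7 T cell, 1 of 5 NK cell and 2 of 7 neural markers were called higher, 1 neutrophil and all 5 erythroid markers lower, and 0 of 5 B cell markers either way. Against sham blood 4 dendritic cell, 4 border macrophage, 2 neutrophil, 1 NK cell, 1 neural and 0 T cell markers were called higher. There, 3 B cell, 1 neutrophil and all 5 erythroid markers were called lower. The T cell markers summed to 33.5 to 59.8 CPM in sham blood, 9.75 to 18.1 in stroke blood and 29.3 to 69.1 in the brain. Sham replicate 1 was also low in the 5 erythroid markers, at 946 CPM against 27405 and 25271 CPM in the other sham libraries, and so stood apart. The part of these cells in the results below was not tested.

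The 6 sensors were read at low to moderate levels in every library. *Nlrp3* (chromosome 11, 59541568 to 59566956, plus strand) had 13.4, 9.50 and 6.69 CPM in sham blood, 9.02, 8.91 and 12.9 in stroke blood, and 34.3, 7.06 and 8.50 in the brain. A single brain pool, replicate 1, was high, with 705 counts against 170 and 195, and the other brain pools lay within the range of the blood libraries. The log2 fold change between brain and stroke blood was 0.74 (SE 0.55, 95% interval -0.50 to 1.97, edgeR adjusted p = 0.341), and without brain replicate 1 it was -0.36. Against sham blood it went from 0.75 (edgeR adjusted p = 0.42) to -0.35. So the sign of the *Nlrp3* difference was set by 1 pool of mice, and the interval spans both a fall and a rise.

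*Nlrp1b* (chromosome 11, 71153102 to 71230733, minus strand) was the sparsest member. It had 2.49, 5.87 and 5.03 CPM in sham blood, 2.34, 2.99 and 4.25 in stroke blood, and 6.23, 3.61 and 4.36 in the brain. The 3 groups overlapped, and the log2 fold change between brain and stroke blood was 0.61 (SE 0.40, edgeR adjusted p = 0.279).

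*Nlrc4* (chromosome 17, 74426295 to 74459108 as the count files place it, minus strand) had 12.9, 14.7 and 13.8 CPM in sham blood, 11.9, 14.3 and 10.9 in stroke blood, and 10.9, 7.72 and 10.9 in the brain. The brain libraries lay below all sham libraries but not below all stroke blood libraries. The log2 fold change was -0.30 against stroke blood (SE 0.26, edgeR adjusted p = 0.42) and -0.49 against sham blood (SE 0.23, edgeR adjusted p = 0.171), and neither passed the test.

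*Naip2*, which senses bacterial secretion system rod proteins, had 74.3, 59.4 and 66.2 CPM in sham blood, 89.2, 81.5 and 109.6 in stroke blood, and 55.2, 49.8 and 34.6 in the brain. The 3 groups did not overlap at all, with stroke blood highest and the brain lowest. *Naip2* averaged 93.4 ± 14.5 CPM in stroke blood and fell to 46.6 ± 10.7 in the brain (SD, n = 3), a log2 fold change of -0.97 (SE 0.21, 95% interval -1.44 to -0.49, edgeR adjusted p = 0.0082). This is just short of the 2-fold threshold. *Naip2* was called once stroke blood replicate 1 (-1.03), stroke blood replicate 2 (-1.09), brain replicate 1 (-1.11) or brain replicate 2 (-1.01) was dropped. *Naip5*, which senses flagellin, had 25.1, 24.3 and 21.4 CPM in sham blood, 29.3, 27.5 and 26.9 in stroke blood, and 24.2, 20.7 and 18.3 in the brain. Its brain libraries also lay below all stroke blood libraries, but the log2 fold change of -0.37 did not pass the test (SE 0.19, edgeR adjusted p = 0.182).

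*Aim2* (chromosome 1, 173350879 to 173466040, plus strand) had 24.4, 20.9 and 19.0 CPM in sham blood, 28.7, 31.0 and 23.9 in stroke blood, and 14.7, 15.6 and 18.2 in the brain. Each brain library was below each blood library. *Aim2* fell from stroke blood to the brain, by 0.76 on the log2 scale (SE 0.21, edgeR adjusted p = 0.0223). The adjusted p was 0.0613 without stroke blood replicate 1, 0.0774 without brain replicate 2 and 0.055 with scaling by library size only. Against sham blood the value of -0.41 did not pass the test (edgeR adjusted p = 0.17).

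The adaptor gene *Pycard* (chromosome 7, 127989708 to 127993867, minus strand) had 108, 113 and 141 CPM in sham blood, 146, 103 and 151 in stroke blood, and 81.0, 112 and 110.0 in the brain. The groups overlapped in each comparison. The log2 fold change between brain and stroke blood was -0.36 (SE 0.19, 95% interval -0.80 to 0.07, edgeR adjusted p = 0.186).

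*Casp1* had 119.7, 110.2 and 112 CPM in sham blood, 128, 114 and 158 in stroke blood, and 58.3, 81.7 and 77.1 in the brain. Every brain library was below every blood library. *Casp1* averaged 133 ± 22.5 CPM in stroke blood and fell to 72.4 ± 12.4 in the brain (SD, n = 3), a log2 fold change of -0.84 (SE 0.18, 95% interval -1.26 to -0.43, edgeR adjusted p = 0.00831). It also fell against sham blood, with -0.66 (SE 0.16, edgeR adjusted p = 0.0263). That adjusted p was 0.0563, 0.0611 and 0.0617 without sham replicate 1, 2 and 3, 0.0688 without brain replicate 3, and 0.0546 with the replicate number as a block. *Casp1* was the only member to pass the adjusted p against both blood groups, which share the brain libraries.

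*Casp4* had 52.0, 35.0 and 44.2 CPM in sham blood, 66.9, 56.9 and 81.7 in stroke blood, and 33.3, 30.6 and 32.3 in the brain. Here too the 3 groups did not overlap, with stroke blood highest, and the brain pools were close together. *Casp4* averaged 68.5 ± 12.5 CPM in stroke blood and fell to 32.0 ± 1.35 in the brain (SD, n = 3), a log2 fold change of -1.06 (SE 0.18, 95% interval -1.46 to -0.66, edgeR adjusted p = 0.00237), and was the only member called in any comparison. Without stroke blood replicate 3, the highest of that group, the log2 fold change was -0.96 and the call was lost. Against sham blood the brain value was -0.45 (SE 0.18, edgeR adjusted p = 0.124), which did not pass the test.

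The pore gene *Gsdmd* (chromosome 15, 75862327 to 75867408, plus strand) had 147, 128 and 132 CPM in sham blood, 154, 166 and 157 in stroke blood, and 173, 150.4 and 158 in the brain. Brain and stroke blood overlapped. Their log2 fold change was 0.05 (SE 0.14, 95% interval -0.27 to 0.37, edgeR adjusted p = 0.817), an interval that leaves out a change of 2-fold in either direction. *Gsdmd* thus had the narrowest interval of the 10 members in this comparison, while *Casp1* and *Casp4* fell.

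**Figure D1:**
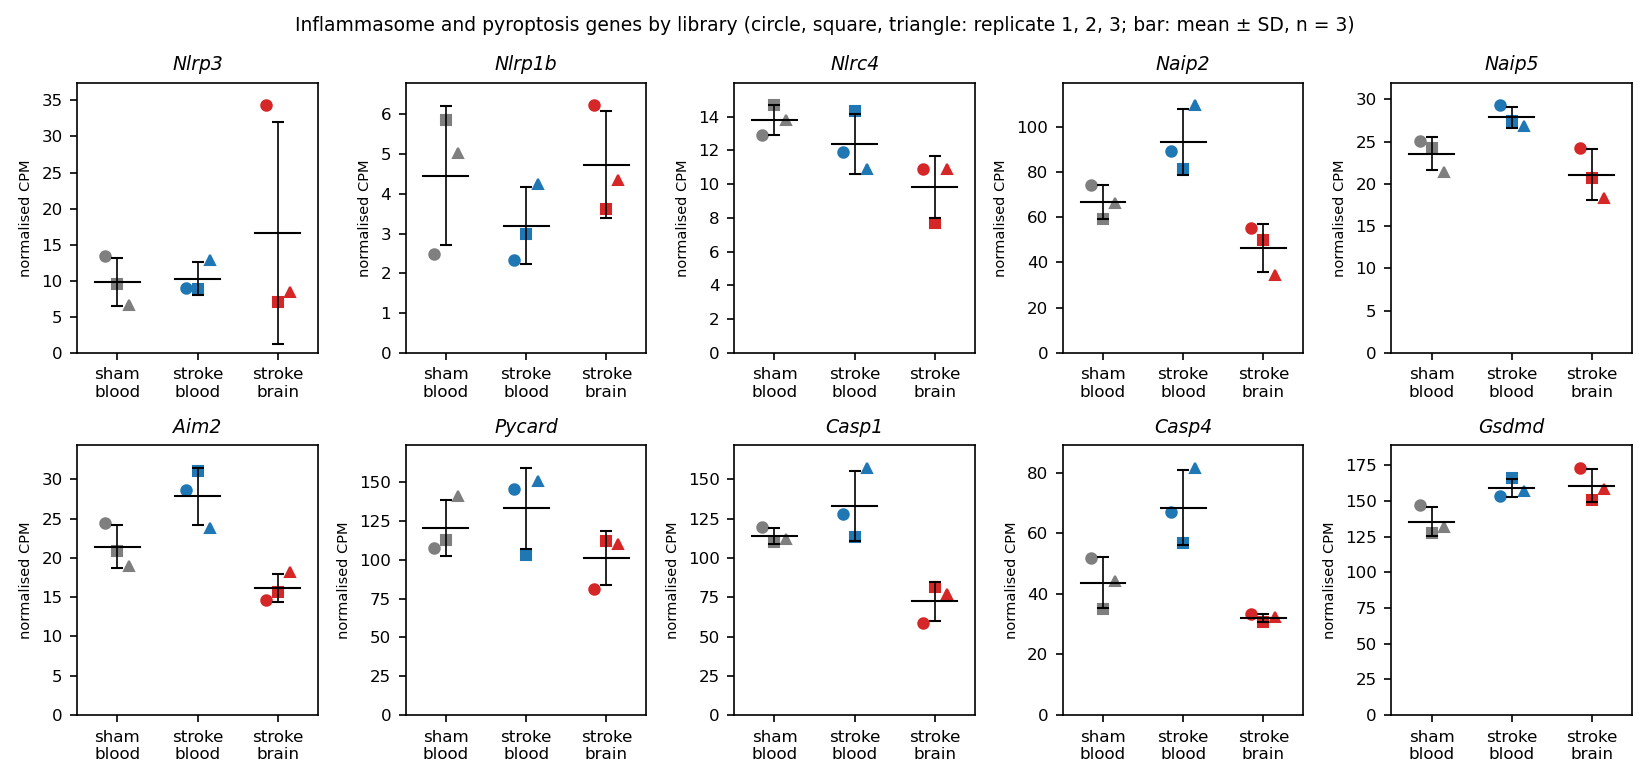
Normalised CPM of each of the 10 members (vertical axis, from 0, a scale per panel) in the 9 libraries, with circles, squares and triangles for replicates 1, 2 and 3 and bars for the mean ± SD of 3 libraries. *Naip2*, *Naip5*, *Aim2*, *Casp1* and *Casp4* have their 3 brain points below all 3 stroke blood points, *Gsdmd* does not, and the *Nlrp3* brain mean is lifted by 1 pool at 34.3 CPM.

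Counted over the list, 1 of the 10 members was called between brain and stroke blood, *Casp4*, lower in the brain, and 0 were called higher. Of all 13189 genes tested, 21% were called, 7.86% lower and 13.1% higher. The members' count is near the share of all genes for lower calls only, and it rests on 1 gene. At an adjusted p below 0.05 without the fold threshold, 4 members were lower (*Naip2*, *Aim2*, *Casp1* and *Casp4*) and 0 higher, where 13.1% of all genes were lower and 17.5% higher (30.6% in either direction). With *Naip5*, 5 members had brain libraries entirely below the stroke blood libraries, against 23.2% of all genes, and no member lay entirely above, against 24.9% (48.2% in either direction). An unadjusted p below 0.05 was found for 4 members and 42.2% of all genes. The median log2 fold change of the members was -0.36, with 7 below 0, and that of all genes was 0.06. With scaling by library size only, the median of all genes moved up by 0.16 and *Casp4* was at -0.90, no longer called.

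Stroke blood and sham blood were compared to ask whether circulating cells already differed after stroke. No member was called, with 0 at an adjusted p below 0.05 by edgeR and 2 at an unadjusted p below 0.05. The called share was 0.0079% of the 12664 genes tested, 1 gene, and 12.5% had an unadjusted p below 0.05. The members at an unadjusted p below 0.05 were *Casp4*, with a log2 fold change of 0.61 (SE 0.20, edgeR adjusted p = 0.327), and *Naip2*, with 0.45 (SE 0.17, edgeR adjusted p = 0.346). Without sham replicate 1, the library that stood apart, these values were 0.76 and 0.54, and again no member was called. For *Naip2*, *Naip5*, *Casp4* and *Gsdmd* all stroke blood libraries were above all sham libraries, as they were for 9.77% of all genes, and for no member were they all below, against 8.29%. The members' median was 0.19, with 8 above 0, and that of all genes -0.03. DESeq2 called 135 genes in this comparison and 0 members.

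The brain was compared with sham blood to see whether the lower values depended on stroke blood as the baseline. No member was called by edgeR or DESeq2, against 13.4% of the 13020 genes tested, 9.75% higher and 3.67% lower. *Casp1* alone passed an adjusted p below 0.05, as 19.8% of all genes did, 12.1% higher and 7.68% lower. The unadjusted p was below 0.05 for 3 members, *Naip2*, *Casp1* and *Casp4*, and for 34.3% of all genes. The brain libraries lay below all sham libraries for *Nlrc4*, *Naip2*, *Aim2*, *Casp1* and *Casp4*, as for 19% of all genes, and above them for *Gsdmd*, as for 22.1%. The *Gsdmd* log2 fold change was 0.24 (SE 0.13, edgeR adjusted p = 0.234). The 3 comparisons share libraries in pairs, so a high stroke blood value enters both comparisons that use it. For *Casp4* the difference of the brain was -1.06 from stroke blood and -0.45 from sham blood, and for *Naip2* it was -0.97 and -0.52.

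**Figure D2:**
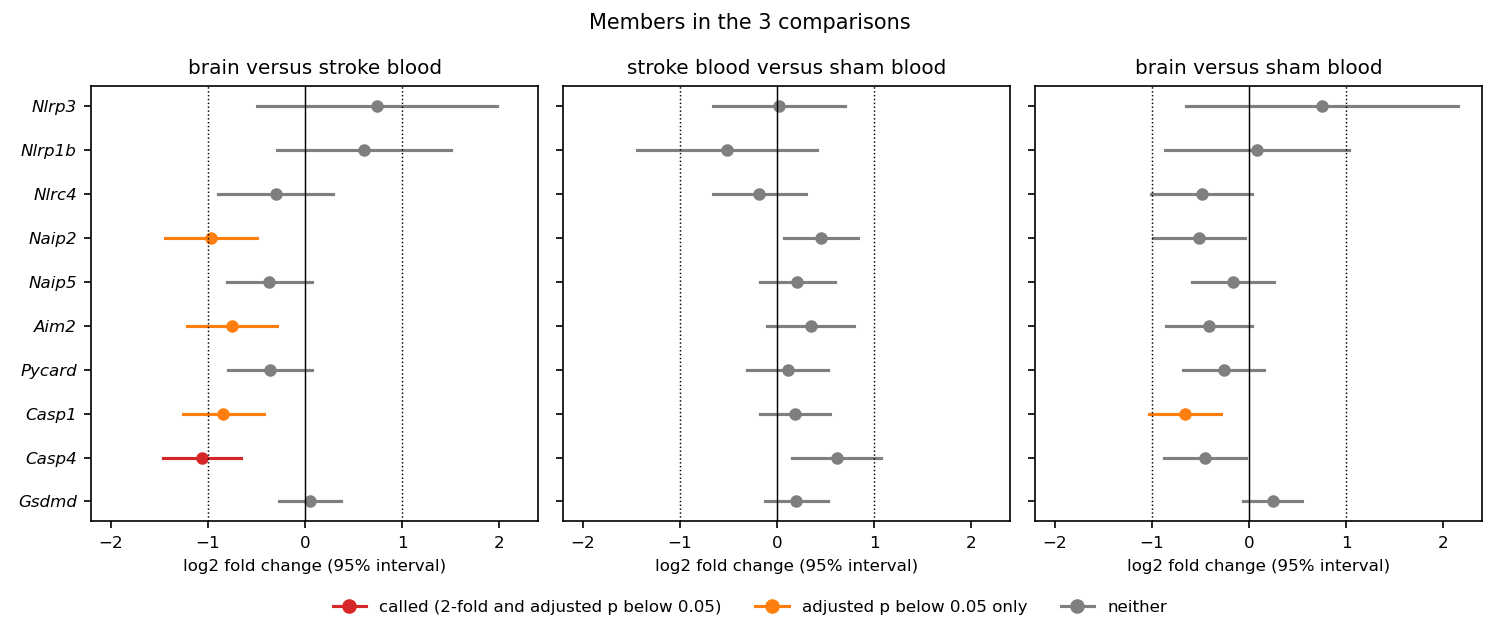
Log2 fold changes of the 10 members (points) with 95% intervals (lines) in 3 comparisons, with dotted lines at a 2-fold change and colours for genes called, genes with an adjusted p below 0.05 only, and the rest. *Casp4* at -1.06 is the single red point, the 3 orange points beside it in the first panel are *Naip2*, *Aim2* and *Casp1*, and *Nlrp3* has the widest interval there and against sham blood.

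Levels of different genes were compared per kilobase of each gene's principal transcript. In sham blood the order was *Casp1* (76.2 ± 3.33 CPM per kb) and *Gsdmd* (75.6 ± 5.74), then *Pycard* (31.8 ± 4.78) and *Casp4* (30.5 ± 5.93), then *Naip2* (13.8 ± 1.56), *Aim2* (7.55 ± 0.970), *Naip5* (4.53 ± 0.369), *Nlrc4* (2.91 ± 0.189), *Nlrp3* (2.45 ± 0.834) and *Nlrp1b* (1.08 ± 0.426; SD, n = 3). The libraries of *Casp1* and *Gsdmd*, of *Pycard* and *Casp4*, and of *Nlrc4* and *Nlrp3* overlapped, and the other neighbours did not. With these lengths the adaptor, caspase and pore genes were thus read above the sensors. Per kb of merged exons this did not hold for *Casp4*, at 11.8 against 13.7 for *Naip2* in sham blood. In stroke blood the order per kb of principal transcript was the same except that *Casp4* (47.8 ± 8.70 CPM per kb) came before *Pycard* (35.1 ± 6.92), with which it overlapped.

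In the brain *Gsdmd* stood alone at the top, at 89.7 ± 6.51 CPM per kb, and *Casp1* followed at 48.3 ± 8.27 without overlap. *Pycard* (26.6 ± 4.60) and *Casp4* (22.3 ± 0.941) overlapped, as did *Aim2* (5.69 ± 0.638) with *Nlrp3* (4.13 ± 3.82) and *Nlrp3* with *Naip5* (4.05 ± 0.571). *Naip2* was between these sets at 9.65 ± 2.21, and *Nlrc4* (2.08 ± 0.388) and *Nlrp1b* (1.14 ± 0.327) came last (SD, n = 3). These places depend on annotated length. The *Pycard* transcript used has 3800 bases, and a shorter one would raise its level per kb. Per kb of merged exons *Gsdmd* was at 57.0 against 76.2 for *Casp1* in sham blood, 66.9 against 88.9 in stroke blood, and 67.6 against 48.3 in the brain. On that scale *Casp4* had rank 5 in each group, below *Naip2*, an alternative added after the values were seen.

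**Figure D3:**
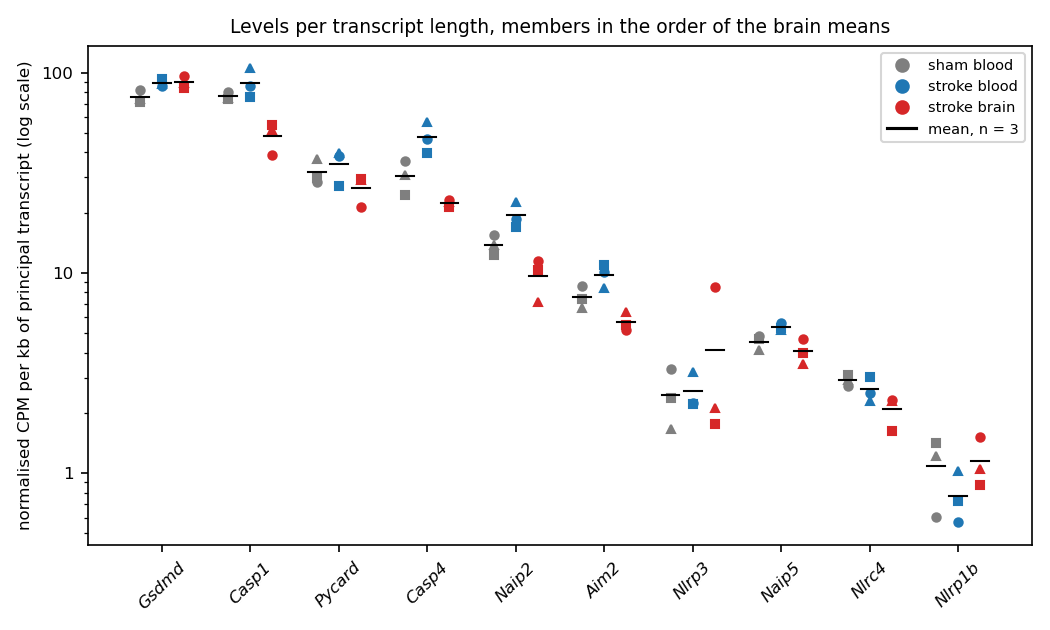
Levels of the 10 members per kilobase of principal transcript (vertical log axis, normalised CPM per kb) in sham blood, stroke blood and stroke brain, with a point per library and a line for the mean of 3. With these lengths *Gsdmd* and *Casp1* overlap in both blood groups and are apart in the brain, where their means are 89.7 and 48.3, and *Nlrp1b* is lowest in every group.

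Among the 6 sensors, *Naip2* supplied the largest share of the summed level per kb, 42.7% ± 2.99 in sham blood, 47.7% ± 4.97 in stroke blood and 36.3% ± 5.87 in the brain (SD, n = 3), and *Aim2* the next, 22.2% to 24.4% by group mean. In brain replicate 1 *Nlrp3* made up 25.4%, against 7.28% and 9.36% in the other pools and 5.49% to 9.38% in the blood libraries.

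Ratios of counts within a library do not depend on the scaling between libraries. *Gsdmd* had 1.23, 1.16 and 1.18 counts per *Casp1* count in sham blood, 1.20, 1.46 and 0.997 in stroke blood, and 2.97, 1.84 and 2.05 in the brain. All brain pools were above all blood libraries, so the 2 genes differed unequally between tissues whichever scaling is used. *Casp4* had 0.435, 0.318 and 0.394 counts per *Casp1* count in sham blood, 0.523, 0.501 and 0.519 in stroke blood, and 0.570, 0.374 and 0.419 in the brain. Here the brain overlapped both blood groups, and stroke blood was above sham blood in all libraries.

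The counts of the cytokine substrate were set against those of the enzyme in the same way. *Il1b* had 1.32, 1.30 and 1.27 counts per *Casp1* count in sham blood, 0.473, 0.837 and 0.890 in stroke blood, and 26.7, 19.1 and 16.4 in the brain. There was no overlap between any of the 3 groups. For *Il18*, the other classical substrate, the ratio to *Casp1* was 0.311 to 0.433 in sham blood, 0.326 to 0.467 in stroke blood and 0.384 to 0.605 in the brain, which overlapped.

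**Figure D4:**
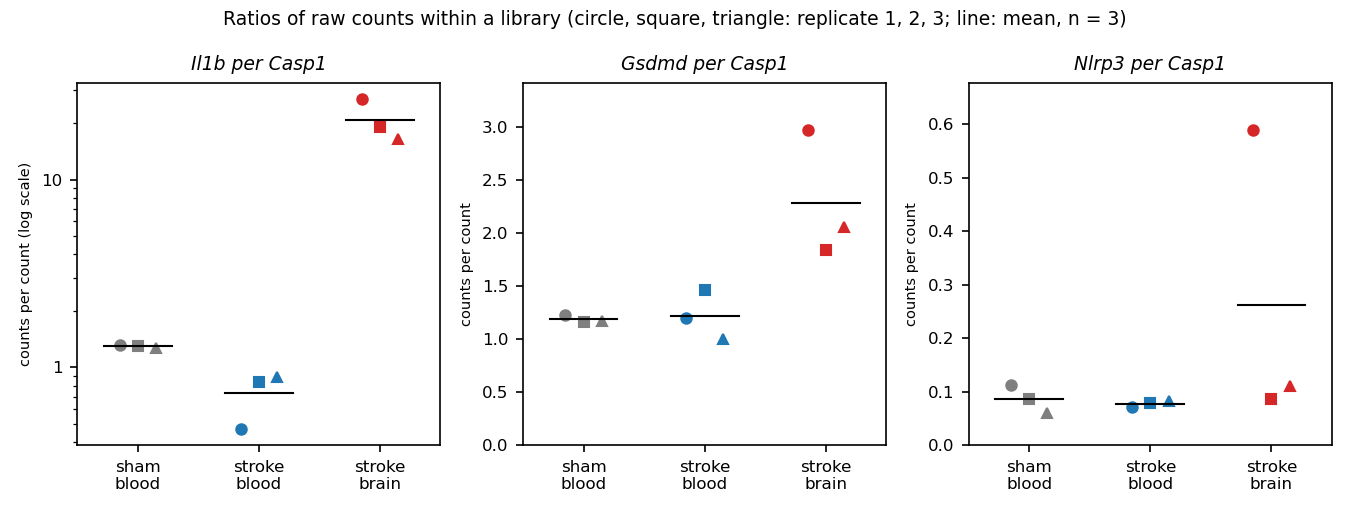
Raw counts of *Il1b* (log axis), *Gsdmd* and *Nlrp3* (axes from 0) per count of *Casp1* in the same library, with a point per library and a line for the mean of 3. The *Il1b* ratio is 16.4 or more in the brain and 1.32 or less in blood, the *Gsdmd* ratio is 1.84 or more in the brain and 1.46 or less in blood, and the *Nlrp3* ratio is high in brain replicate 1 only, at 0.588.

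A wider list of 41 pathway genes, also chosen with earlier results of these data known, gave the surroundings of the members. Between brain and stroke blood 40 of them could be tested, and 6 were called higher and 2 lower, against the 13.1% and 7.86% of all genes above. Their median log2 fold change was 0.13, and the calls were cytokines, their antagonists, 2 regulators and 1 sensor.

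Of the 3 cytokines released by this pathway, 2 were called higher. *Il1b* (chromosome 2), the main product of caspase-1 in monocytes, had 158, 143 and 143 CPM in sham blood, 60.5, 95.1 and 140.3 in stroke blood, and 1559, 1563 and 1262 in the brain. It rose with a log2 fold change of 3.93 (SE 0.30, edgeR adjusted p = 3.83e-05) against stroke blood and 3.30 (SE 0.15, edgeR adjusted p = 0.000141) against sham blood. *Il1a*, an alarmin released through the same pores, had 0, 0 and 1 counts in stroke blood, 2, 5 and 4 in sham blood, and 1748, 815 and 967 in the brain. The ratio of brain to stroke blood was 2999.95 with a counting interval from 538 to 118525 (exact, 95%, counting error only; edgeR adjusted p = 2e-05), so its size was poorly fixed though its direction was not. Exons of *Il1b* and *Il1a* overlap antisense genes. *Il18* had 51.9, 34.3 and 43.2 CPM in sham blood, 41.8, 53.0 and 68.5 in stroke blood, and 35.3, 31.4 and 31.7 in the brain. It fell against stroke blood without reaching 2-fold (-0.69, SE 0.21, edgeR adjusted p = 0.0316). The adjusted p was above 0.05 without stroke blood replicate 2 (0.0566) or 3 (0.0894), brain replicate 2 (0.101) or 3 (0.108), and with the block (0.0604).

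Genes for inhibitors and decoys included the other 4 calls that were higher, out of 9. *Il1rn*, the IL-1 receptor antagonist, had 30.1, 19.0 and 22.9 CPM in sham blood, 25.5, 22.9 and 37.2 in stroke blood, and 213, 243 and 215 in the brain (log2 fold change against stroke blood 3.01, SE 0.20, edgeR adjusted p = 2.42e-05). *Il1r2*, a decoy receptor, had 18.6, 17.2 and 47.0 CPM in sham blood, 5.86, 6.68 and 9.51 in stroke blood, and 282, 79.4 and 69.8 in the brain, where replicate 1 was far above the others (4.33, SE 0.56, edgeR adjusted p = 0.000584, and 3.38 without brain replicate 1). Both genes were called against sham blood as well, *Il1rn* with 3.22 and *Il1r2* with 2.38, but the *Il1r2* call there was lost without brain replicate 1 (1.43), sham replicate 1 (2.17) or sham replicate 2 (2.13), and the value was 2.998 without sham replicate 3. *Tnfaip3*, the ubiquitin editor A20 that restrains NF-κB and NLRP3, rose from 23.8 ± 2.92 to 237 ± 84.6 CPM (SD, n = 3; 3.35, SE 0.27, edgeR adjusted p = 4.85e-05). *Il18bp*, which binds free IL-18, rose from 3.94 ± 1.55 to 18.1 ± 7.06 CPM (2.24, SE 0.39, edgeR adjusted p = 0.00286), but its exons overlap the more strongly counted *Numa1* on the other strand. *Il1rn* had 0.133 to 0.190 counts per *Il1b* count in sham blood, 0.241 to 0.422 in stroke blood and 0.137 to 0.170 in the brain, so antagonist and cytokine counts stood in a like ratio in sham blood and in the brain.

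The 2 genes called lower were *Txnip* and *Nlrp6*. *Txnip*, a thioredoxin-binding protein described as an NLRP3 activator and also a glucose-responsive gene, had 302, 331 and 241 CPM in sham blood, 216, 311 and 271 in stroke blood, and 40.8, 74.6 and 85.4 in the brain. All brain pools were far below all blood libraries, and *Txnip* fell by 1.96 on the log2 scale against stroke blood (SE 0.27, edgeR adjusted p = 0.000877) and fell by 2.12 against sham blood (edgeR adjusted p = 0.00318). Its exons overlap *Gm15441* on the other strand. *Nlrp6* had 1.12, 2.32 and 1.08 CPM in stroke blood, 0.0994, 2.47 and 2.93 in sham blood, and 0 counts in all brain libraries, at least 11.3-fold lower than stroke blood when 3 counts per brain library are taken as the limit (edgeR adjusted p = 0.00222). The platelet markers were likewise low in sham replicate 1, at 12.2 CPM, and in the brain, at 5.23 CPM or less. The erythroid markers were low in the same libraries, with 946 CPM in sham replicate 1 and at most 11.7 CPM in the brain. Within stroke blood *Nlrp6* was highest in replicate 2, where the platelet markers were highest (287 CPM) and the erythroid markers lowest (10978 CPM). The part of either set in the *Nlrp6* result was not tested.

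**Figure D5:**
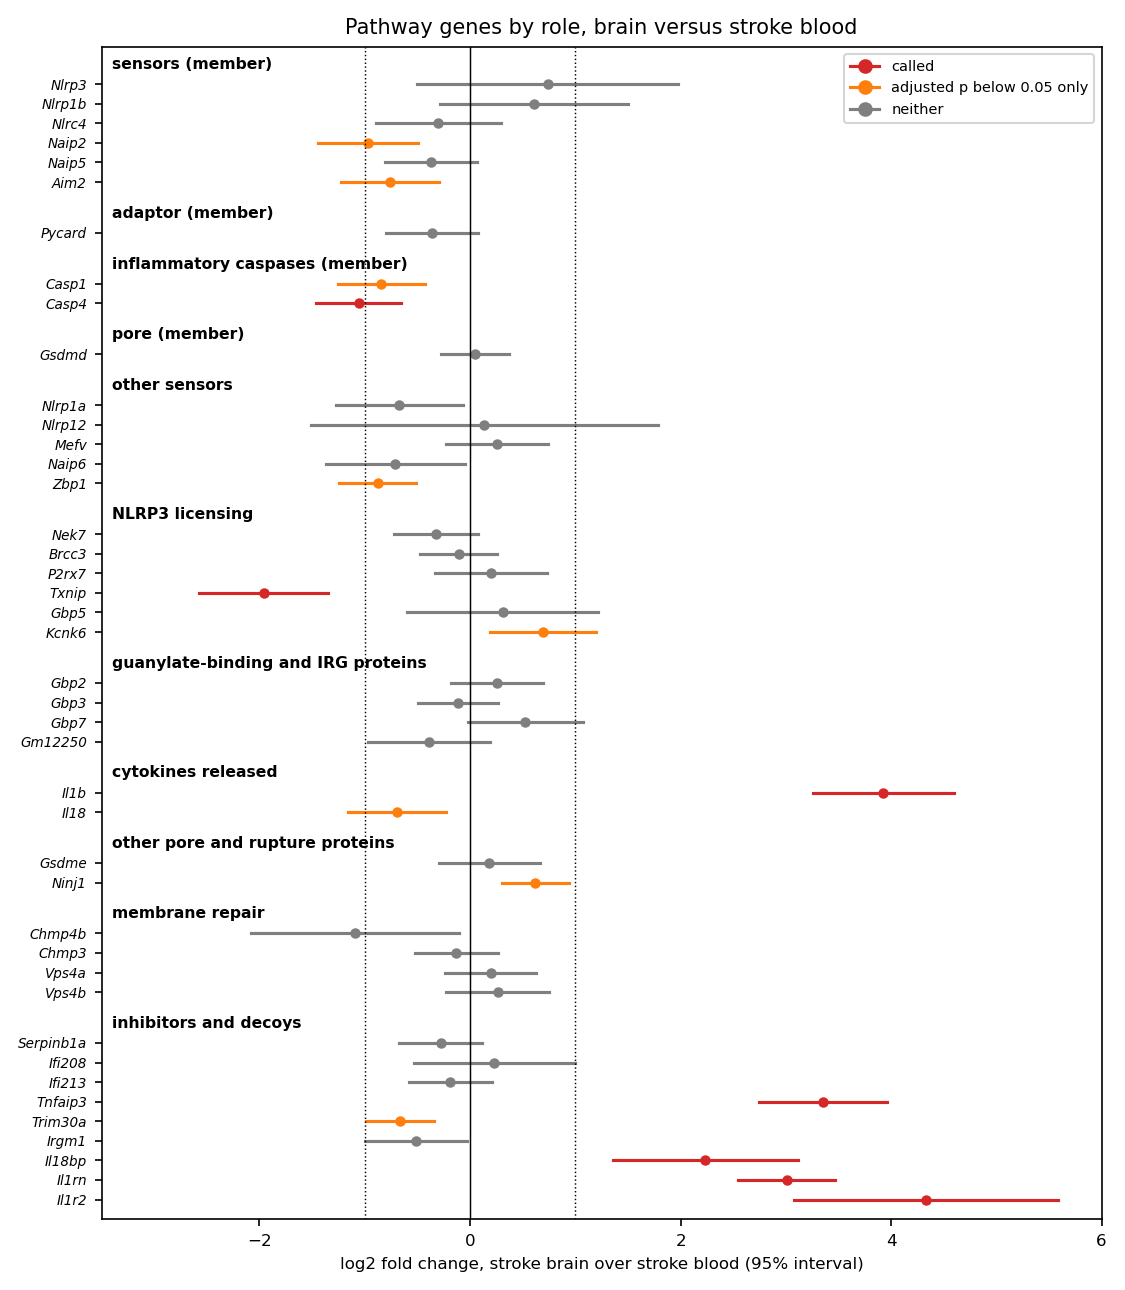
Log2 fold changes between stroke brain and stroke blood (points) with 95% intervals (lines) for the 10 members and pathway genes, grouped by role, with dotted lines at a 2-fold change. *Nlrp6* and *Il1a*, with 0 and 1 counts in a whole group, and the apoptotic caspases are left out; the 5 red points to the right of the 2-fold line are *Il1b*, *Tnfaip3*, *Il18bp*, *Il1rn* and *Il1r2*, while no member lies beyond it on that side.

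Other genes of the list passed the adjusted p below 2-fold in this comparison; they are named after their values were seen. *Ninj1*, which ruptures the membrane at the end of pyroptosis, rose by 0.62 on the log2 scale (edgeR adjusted p = 0.0105, but 0.0619 without stroke blood replicate 1 and 0.0547 without brain replicate 2). *Zbp1*, a nucleic acid sensor, fell by 0.88 (edgeR adjusted p = 0.00385) and *Trim30a*, a negative regulator of NLRP3, fell by 0.67 (edgeR adjusted p = 0.00779), and both held with any library left out. *Kcnk6* (0.69) and *Casp2* (-0.65) passed as well, with an adjusted p over 0.05 in 5 and 4 of the 6 fits that dropped a library. None of the 4 guanylate-binding and IRG genes and none of the 4 membrane repair genes passed the adjusted p. *Naip1*, with at most 0.876 CPM in any library, was the gene that could not be tested.

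Between stroke blood and sham blood 39 pathway genes were tested and 0 were called by edgeR, with 7 at an unadjusted p below 0.05. *Il1r2* was lower in all stroke blood libraries, with a log2 fold change of -1.94 (SE 0.40, edgeR adjusted p = 0.285), and it was the 1 pathway gene that DESeq2 called. Its sham level was uneven, 47.0 CPM in replicate 3, where neutrophil markers were also highest, at 3419 CPM against 1049 and 1243 CPM; their part was not tested. *Naip1* and *Il1a* were too sparse to be tested. Between the brain and sham blood 40 were tested, with 6 called higher, the same as against stroke blood, and 2 lower, *Txnip* and *Nlrp1a*. *Nlrp1a*, the neighbour and near relative of *Nlrp1b*, had 38.2, 41.9 and 41.5 CPM in sham blood, 21.2, 33.7 and 30.2 in stroke blood, and 12.3, 18.7 and 21.3 in the brain, and its log2 fold change against sham blood was -1.22 (SE 0.22, edgeR adjusted p = 0.0098). *Nlrp6* was not tested there. Its sham mean was at least 13.7-fold above the brain, with 3 counts per brain library as the limit. That mean rests on sham replicates 2 and 3, with 53 counts each, since sham replicate 1 had 2 counts, under the limit.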

How the data were processed

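HISAT2 (alignment), HTSeq (gene counting) and GRCm38 are named by the authors' methods or the submitters' processing notes, and the deposited values are raw counts without normalization. Software versions and the HTSeq strand setting are not given in the sources used here. cDNA was made with a kit that does not mark strand and amplified without molecular identifiers, so limits from counts cover counting error only.

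Samples were grouped by the labels. The members, the 41 pathway genes and the cell markers were chosen with earlier results of these data known; the text names all members, every pathway gene called in a comparison and those not tested. Each pair of groups had its own fit in R 4.3.3 (edgeR 4.0.16, TMM scaling, default filter on low counts, quasi-likelihood test with Benjamini-Hochberg adjustment), and the thresholds, a fold change of 2 and an adjusted p of 0.05, are those of the study, which used DESeq2. The SE is the log2 fold change over the square root of F. With 3 libraries a group, an exact permutation test cannot give a two-sided p below 0.1. The fit was tested on simulated data. Levels used TMM over all 9 libraries and transcript lengths from GENCODE M21. Alternatives were RLE or library size scaling, DESeq2 1.42.0, no filter, all libraries in 1 fit, the replicate number as a block, no fold threshold and each library left out. Figures used Python 3.11.15 and matplotlib 3.10.9. An item of the pathway list is not reported here.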

Additional observations from a re-analysis of the deposited data

How the results depend on the processing

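Limits come from 3 libraries a group, and with 1 left out an arm holds 2. The count of members called between brain and stroke blood was 1; it was 0 with library size scaling, 2 with all 9 libraries in 1 fit (*Naip2* and *Casp4*), 4 with no fold threshold, and 0 to 2 with 1 library left out. The 8 pathway calls became 15 with no fold threshold. Library size scaling moved the median of all genes by 0.16 against stroke blood and 0.12 for the brain against sham blood. Its calls between brain and stroke blood were 2058 higher and 792 lower, against 1734 and 1037.

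Between stroke and sham blood the 1 gene called became 135 with DESeq2, 160 with no filter, and 0 to 16 with 1 library left out (16 without sham replicate 1); pathway calls went from 0 to 1 with DESeq2 and to 1 with no filter (*Il1r2*). Against sham blood the 1748 genes called in the brain ranged from 1146, without sham replicate 3, to 1883 with 1 library left out, and the members called went from 0 to 1 with no fold threshold.

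Signs turned only for differences that had not passed the test, with the range over the fits without 1 library beside each. Between brain and stroke blood *Nlrp3* was -0.36 without brain replicate 1 (range -0.36 to 1.11), and *Gsdmd* was -0.0067 without stroke blood replicate 1 and -0.0086 without brain replicate 1 (-0.0086 to 0.10). Between stroke and sham blood *Nlrp3* was -0.017 with library size scaling, -0.0029 with no filter, and -0.20 to 0.31 with 1 library left out; *Il1rn* was -0.014 to 0.41, *Tnfaip3* -0.026 to 0.44 and *Nlrp6* -0.85 to 0.20, and 0.21 with the replicate block. Between brain and sham blood *Nlrp3* was -0.35 to 1.11 and *Nlrp1b* -0.20 to 0.33. The cause was not tested.

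Replicate numbers did not pair the samples: deviations of same-numbered libraries correlated between -0.07 and 0.07. With the replicate number as a block the calls were 2634, 1 and 1571 genes in the 3 comparisons, against 2771, 1 and 1748, and *Casp4* remained the 1 member called; the *Il1r2* call against sham blood was lost (2.22, edgeR adjusted p = 0.07).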

Other observations

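*Nlrp12*, a sensor outside the member list that neutrophils and monocytes express, was uneven within both blood groups, with 1.49, 3.31 and 8.52 CPM in sham blood, 0.408, 5.21 and 1.85 in stroke blood, and 2.19, 2.99 and 2.96 in the brain. It was not called in any of the 3 comparisons. The 11 neutrophil markers summed to 1049, 1243 and 3419 CPM in the same sham libraries, 680, 1160 and 961 in stroke blood, and 1272, 1134 and 1737 in the brain. The highest library was sham replicate 3 and the lowest stroke blood replicate 1 for both, but the order between them differed. The next highest was stroke blood replicate 2 for *Nlrp12* (5.21 CPM) and brain replicate 3 for the neutrophil markers (1737 CPM). *Ly6g*, the gene of the antigen gated out, was at most 0.838 CPM in every library.

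*Zbp1* had 136, 136 and 125 CPM in sham blood, 243, 179 and 260.0 in stroke blood, and 119, 123 and 119 in the brain. The stroke blood libraries were above all others, though the difference from sham blood did not pass the adjusted p of edgeR (log2 fold change 0.75, SE 0.17, adjusted p = 0.285).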
